A study of Mus musculus with 8 samples.

Results

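The cytosolic ribosomal protein genes were followed in cultured fibroblasts of mouse embryos with and without Smurf2, a gene for a ubiquitin ligase. Members were all genes whose symbol begins with Rpl or Rps and a digit, or is Rplp0, Rplp1, Rplp2 or Rpsa. The S6 kinase genes (6 symbols beginning Rps6k) and 2 symbols of pseudogenes were left out. The rule gave 63 genes of 17501 genes measured by transcript clusters with a single symbol, a transcript cluster being the set of probes that the array summarises into 1 value. Of the 63 genes, 21 encode proteins of the small (40S) subunit and 33 proteins of the large (60S) subunit. Another 8 are paralogs or retrocopies, and Rps19bp1 encodes a protein that binds Rps19 and is no ribosome component. A further 20 ribosomal protein symbols, among them Rpl3, Rpl11, Rps24 and Rps27, occurred only in clusters that carry several symbols and are not among the 63.

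The 8 arrays form a full factorial of genotype, background and passage class with 1 array per combination. Smurf2-/- cells on mixed BL, the label for a cross of the strains NIH Black Swiss and 129SVJ, came from a mix of 3 embryos and were taken at passage 33 (late) and passage 6 (early). Wild-type mixed BL cells came from a mix of 2 embryos and were taken at the same passages. Smurf2-/- and wild-type cells of the C57B6 background came from 1 embryo each and were taken at passage 28 (late) and passage 7 (early). The labels give neither the embryos' sex nor whether an early and a late array were passages of one culture. No combination was repeated. The spread behind each p-value is what the fit leaves over, which mixes interactions not fitted with differences between arrays that could be technical.

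A ribosome is built from a small and a large subunit, each a scaffold of ribosomal RNA covered by proteins that are mostly encoded by single genes. The messenger RNAs of these proteins begin with a run of pyrimidines, the terminal oligopyrimidine or TOP tract, through which the kinase mTORC1 and the RNA-binding protein Larp1 control their translation together. Ribosomal protein genes have also left many processed copies across the mouse genome, so that array probes for one gene often match several places.

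The values are log2 differences from each cluster's median over the 8 arrays, as deposited, and a gene's value is the mean of its clusters. They hold no level to set one gene against another. In cell cultures measured in bulk, fewer cells of a type and less RNA per cell cannot be told apart. Differences were fitted with limma over all 17501 genes, and a gene was called where the Benjamini-Hochberg adjusted p was under 0.05.

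RefSeq (assembly GRCm38.p6) held promoter sequences for 51 of the 63 genes, 60 promoters in all, each with 250 bases before and 50 after an annotated start. The 30 bases around the start are shown for genes that the results turn on and that differ in what stands at the start. In the first 4 the annotated start opens a run of C and then at least 4 bases of C or T, in capitals. In Rpsa, Rpl13 and Rps3a1 it opens no such run, though that of Rpl13 opens with T bases. The start is the first base after the 15 bases upstream.
Rps10 (chr17:27635230-27635259, minus strand): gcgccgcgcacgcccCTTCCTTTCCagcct
Rps15a (chr7:118116133-118116162, minus strand): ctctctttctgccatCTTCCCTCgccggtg
Rpl14 (chr9:120571502-120571531, plus strand): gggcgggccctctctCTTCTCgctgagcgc
Rplp2 (chr7:141447636-141447665, plus strand): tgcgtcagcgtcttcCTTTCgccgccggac
Rpsa (chr9:120127751-120127780, plus strand): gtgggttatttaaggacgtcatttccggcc
Rpl13 (chr8:123102335-123102364, plus strand): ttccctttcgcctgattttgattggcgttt
Rps3a1 (chr3:86142654-86142683, minus strand): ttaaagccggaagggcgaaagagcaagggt

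A run of C and then at least 4 bases of C or T stood at the annotated start of 10 of the 60 promoters (16.7%), against 469 of 21262 promoters of coding genes (2.21%). With the run allowed to begin within 5 bases of the start, the shares were 35.0% and 18.6%. Searched on both strands of the 300 bases, CCGGAAG, the core that ETS family factors bind, occurred in 33.3% of the members' promoters and 11.6% of all. GGGCGG, the core of a GC box, occurred in 56.7% and 46.2%, and TATAAA in 10.0% and 12.6%. These are matches of letters in annotated windows and are not shown to be sites.

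Smurf2 averaged -0.88 ± 0.38 in the Smurf2-/- arrays and 0.69 ± 0.22 in the wild-type arrays (SD, n = 4 each), lower in 4 of 4 matched pairs, with a limma adjusted p of 0.0484 that was lost under most alternatives. Whether its probes lie in the deleted part is not known here. Xist, the RNA of X inactivation in females, averaged -1.84 ± 0.23 in the Smurf2-/- arrays and 2.52 ± 0.74 in the wild-type arrays (SD, n = 4 each). Xist thus differed along with genotype. Whatever goes with Xist cannot be told apart from Smurf2 loss in any genotype difference, and its part was not tested. The 11 fibroblast markers, among them Col1a1 and Thy1, were all measured. Centred values do not give their level, and the signal range read further below for other clusters was not set out for them. None of the 11 was higher at late than at early passage (median log2 difference -0.24, 0 called). Of 10 leukocyte markers, 4 were higher and none was called over both backgrounds (median -0.02), with -1.72 for Lyz2 (adjusted p = 0.206) and -0.89 for Cd68 (adjusted p = 0.113). Cd52 was higher in 4 of 4 pairs (0.12, limma adjusted p = 0.482). By pair, 8 and 4 of the 10 were higher in Smurf2-/- and wild-type C57B6 cells, and 3 and 2 in those of mixed BL. Within mixed BL, Lyz2, the lysozyme gene of macrophages and neutrophils, fell by 2.91 ± 0.29 on the log2 scale (SE, limma adjusted p = 0.0441). With any 1 array left out, no gene was called within mixed BL, Lyz2 included. Of 8 epithelium markers, 7 were higher at late passage (median 0.14, 0 called), 7 within mixed BL (0.12) and 8 within C57B6 (0.14). Of 8 endothelium markers, 5 were higher (median 0.03, 0 called), 5 within mixed BL (0.02) and 6 within C57B6 (0.09). All 3 erythroid markers measured were higher (median 0.07, 0 called), 1 within mixed BL and 3 within C57B6. The part of these markers in the passage differences below was not tested.

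Most ribosomal protein genes had higher values at late passage, though none passed the test. Late minus early over both genotypes and backgrounds, 53 of the 63 genes were higher and 10 lower, with a median log2 difference of 0.21. Over all genes 57.5% were higher and the median was 0.03. No member was called, and 3 of 17501 genes were (0.0171%). At an unadjusted p under 0.05, 26 members were higher, where 6.95% of all genes were, and 2 were lower, where 10.3% were. In 31 members all 4 matched pairs of late and early arrays had the higher value at late passage (15.1% of all genes) and in 1 the lower (11.9%), and in 14 the 4 late arrays lay above all 4 early arrays (5.44%). In Rps4l they lay below (4.59%).

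**Figure D1:**
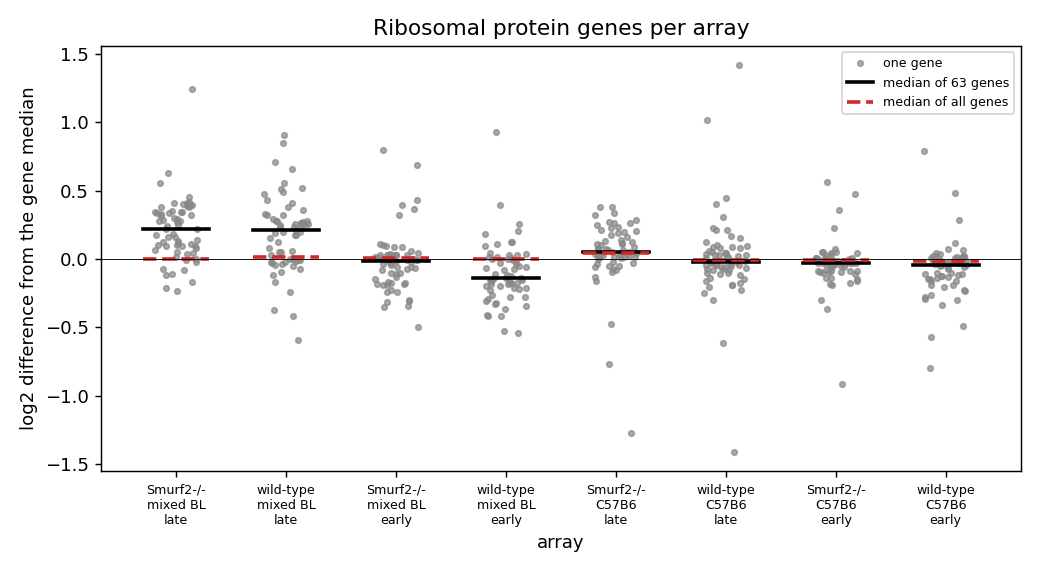
Values of the 63 ribosomal protein genes on each of the 8 arrays, as log2 differences from each gene's median; a grey point is one gene, the black line the median of the 63 genes and the dashed red line the median of all 17501 genes. The late mixed BL arrays have member medians of 0.22 (Smurf2-/-) and 0.21 (wild-type), above those of the other 6 arrays.

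The member medians were 0.22 and 0.21 on the late Smurf2-/- and wild-type arrays of mixed BL, and 0.05 and -0.03 on those of C57B6. The early arrays had -0.01 and -0.14 in mixed BL and -0.03 and -0.05 in C57B6, Smurf2-/- given first. The medians of all genes lay between -0.02 and 0.05 on the 8 arrays. Of the 63 genes, 46 had their highest value on one of the 2 late mixed BL arrays, and 23 had their lowest on the early wild-type mixed BL array. The share of all genes with such extremes was not counted. Values of all genes spread more on the late mixed BL arrays (SD over genes 0.36 and 0.34) than on the early arrays (0.22 to 0.31). The late C57B6 arrays had 0.38 (Smurf2-/-) and 0.29 (wild-type), so a wide spread was not particular to late mixed BL. By the member medians, the late arrays of mixed BL stood above the other arrays in these genes.

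The difference by background was tested as an interaction. Within mixed BL, late minus early had a member median of 0.29, with 53 of 63 higher (51.9% of all genes) and at an unadjusted p under 0.05 36 members higher (5.84%) and 2 lower (10.6%). Within C57B6 the median was 0.09 (0.05 to 0.12 with 1 array left out), with 47 of 63 higher (59.6% of all genes) and at an unadjusted p under 0.05 7 members higher (4.22%) and 2 lower (6.55%). The passage difference was larger in mixed BL for 50 of 63 members (40.7% of all genes), with a median interaction of 0.16 against -0.05 over all genes. At an unadjusted p under 0.05 it was above 0 in 14 members (3.99% of all genes) and below 0 in 2 (5.21%). No member passed the interaction test or either test within a background, where 85 of 17501 genes (0.486%) were called in mixed BL and 0 (0%) in C57B6 and 0 (0%) for the interaction. With any 1 of the 8 arrays left out, 0 genes were called in mixed BL. The lowest adjusted p of a member was 0.0636, for Rpl36 within mixed BL. Late passage was 33 in mixed BL and 28 in C57B6, and embryo numbers differed too, which cannot be told apart from background.

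Both genotypes showed the difference. In mixed BL the median of late minus early was 0.28 in Smurf2-/- cells (53 of 63 higher) and 0.24 in wild-type cells (49 of 63 higher). In C57B6 it was 0.12 in Smurf2-/- cells (49 of 63) and 0.06 in wild-type cells (44 of 63). The medians of all genes in the same pairs were -0.01, 0.02, 0.08 and 0.00, so that the members lay closer to all genes in both C57B6 pairs than in the mixed BL pairs. The interaction of genotype and passage had a member median of 0.00 and no call among members or all genes (0%), and 32 of 63 members above 0 (54.1% of all genes). No member had an unadjusted p under 0.05 in it, where 2.85% of all genes did above 0 and 2.5% below.

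**Figure D2:**
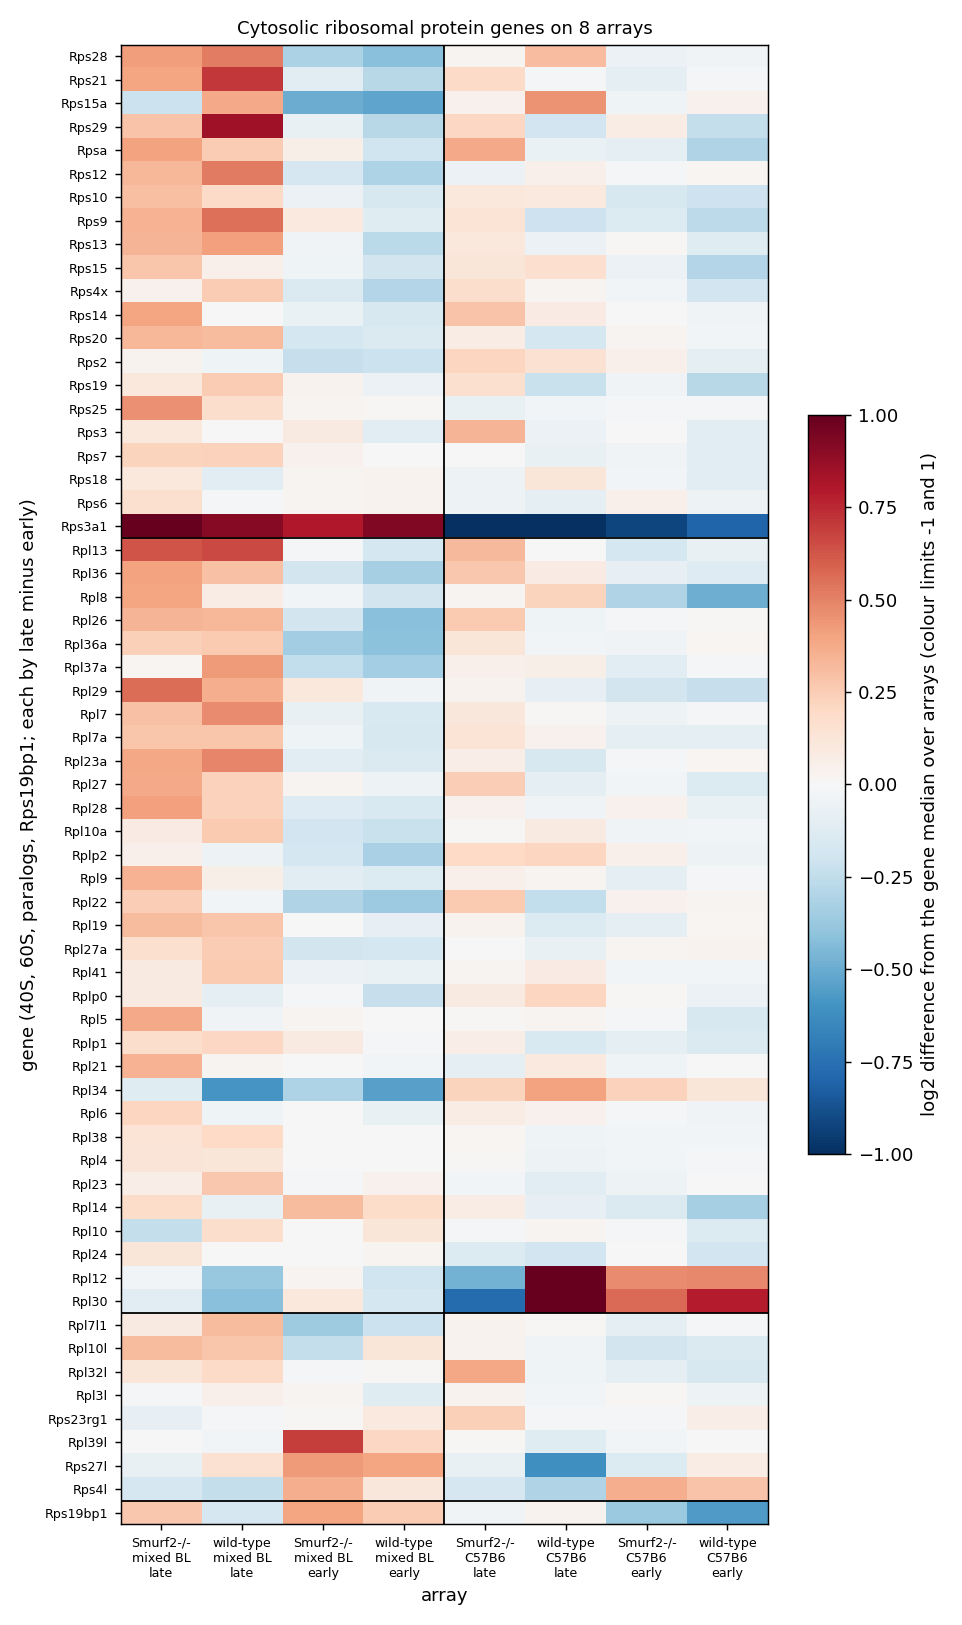
Each of the 63 genes (rows: 40S, 60S, paralogs and Rps19bp1, ordered within each by late minus early) on the 8 arrays (columns; mixed BL left of C57B6, late left of early, Smurf2-/- left of wild-type), coloured by the log2 difference from the gene's median, with colours held at -1 and 1. The late mixed BL columns are mostly red, and Rps3a1, Rpl12, Rpl30 and Rpl34 differ from the common pattern.

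The median was larger in small than in large subunit genes, a difference that was not tested. Of 21 genes for 40S proteins, 19 were higher at late passage with a median of 0.29, and of 33 genes for 60S proteins 29 were higher with a median of 0.16. Rps10, whose protein is ubiquitinated when ribosomes collide, had 0.30 and 0.19 on the late Smurf2-/- and wild-type mixed BL arrays and 0.10 and 0.10 on those of C57B6. On the early arrays it had -0.06 and -0.16 in mixed BL and -0.16 and -0.21 in C57B6, so all late arrays lay above all early ones. Its log2 difference was 0.32 ± 0.05 (SE, 1.25-fold, 4 pairs), with adjusted p = 0.113, and it was nearly the same within mixed BL (0.35) and C57B6 (0.29).

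Rpsa, which encodes the 40S protein also known as the laminin receptor precursor, had 0.40 and 0.25 on the late Smurf2-/- and wild-type mixed BL arrays and 0.38 and -0.07 on those of C57B6. On the early arrays it had 0.06 and -0.20 in mixed BL and -0.10 and -0.30 in C57B6. The late wild-type C57B6 array overlapped the early ones, although each pair was higher at late passage, by 0.38 ± 0.07 (SE, adjusted p = 0.122). Rps15, which encodes a protein of the head of the small subunit, differed by 0.30 ± 0.07 (SE, adjusted p = 0.144), and its late and early arrays did not overlap.

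Among 60S genes, Rpl36 had 0.41 and 0.29 on the late Smurf2-/- and wild-type mixed BL arrays and 0.27 and 0.08 on those of C57B6. On the early arrays it had -0.19 and -0.33 in mixed BL and -0.08 and -0.13 in C57B6. No late array overlapped an early one, and the difference was 0.44 ± 0.09 (SE, adjusted p = 0.124). Rpl13, whose introns hold a small nucleolar RNA, had 0.63 and 0.66 on the late Smurf2-/- and wild-type mixed BL arrays but 0.32 and 0.01 on those of C57B6. All 4 early arrays lay lower, between -0.18 and -0.01, for a difference of 0.51 ± 0.12 (SE, 1.43-fold, adjusted p = 0.156).

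Rpl8, which encodes a protein close to the peptidyl transferase centre, had a difference of 0.34 in mixed BL and 0.52 in C57B6. It averaged 0.18 ± 0.17 on late and -0.25 ± 0.20 on early arrays (SD, n = 4 each), a difference of 0.43 ± 0.10 (SE, adjusted p = 0.149). Rpl7a differed by 0.28 ± 0.07 (SE) and Rpl29 by 0.31 ± 0.07 (SE), with adjusted p of 0.150 and 0.153. By the neighbouring cluster identifiers, no cluster of Rpl7a or Rpl29 lies at the gene, so these values need not be those of the genes themselves. All 8 genes named here for a higher value at late passage were chosen as the members of smallest p with one sign in 4 pairs.

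Within mixed BL the largest differences were those of Rps28, Rps21, Rps29 and Rpl13, at 0.83 ± 0.12, 0.75 ± 0.15, 0.74 ± 0.25 and 0.74 ± 0.13 (SE, 2 pairs). Rps28 had 0.42 and 0.51 on the late Smurf2-/- and wild-type mixed BL arrays, against -0.31 and -0.42 on the early ones, a 1.78-fold difference with adjusted p = 0.0648. In C57B6 it had 0.03 and 0.31 on the late arrays, against -0.06 and -0.03 on the early ones. The 4 members of smallest p for a larger difference in mixed BL were Rpl36a at 0.57 ± 0.13, Rps12 at 0.67 ± 0.15, Rpl23a at 0.61 ± 0.15 and Rpl27a at 0.46 ± 0.12 (SE, adjusted p from 0.363 to 0.393). These 4 genes had differences of 0.39 to 0.67 within mixed BL and of -0.07 to 0.06 within C57B6.

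**Figure D3:**
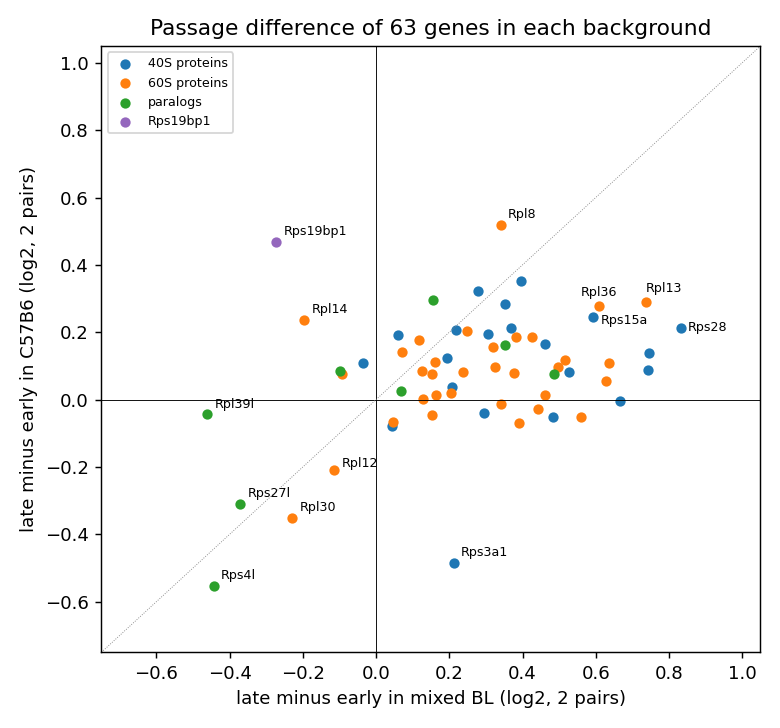
Late minus early difference (log2) of each of the 63 genes in mixed BL (horizontal, 2 pairs) and in C57B6 (vertical, 2 pairs); colours give the class, and the dotted line marks equal differences. Most 40S and 60S genes lie right of 0 and below the dotted line, with member medians of 0.29 in mixed BL and 0.09 in C57B6, and Rps4l lies in the lower left.

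Some subunit genes differed little between late and early passage. Rps6, the 40S protein phosphorylated by S6 kinase, stood at -0.02 ± 0.06 (SE), and Rpl10 by -0.01 ± 0.10 (SE), a value whose sign turned with its own-locus cluster alone (0.00) and without single arrays (-0.09 to 0.09). Rpl4 had the narrowest range of a subunit gene over the 8 arrays at 0.18, where the median range of the members was 0.55. The P stalk genes, which encode the stalk that recruits elongation factors, gave 0.15 ± 0.07 (Rplp0), 0.11 ± 0.06 (Rplp1) and 0.23 ± 0.06 (Rplp2, SE), with adjusted p between 0.159 and 0.407. Rpl5, whose protein binds Mdm2 together with Rpl11, gave 0.14 ± 0.08 (SE, adjusted p = 0.453). Of the X-linked members, Rps4x and Rpl36a were at 0.29 ± 0.09 and 0.34 ± 0.13 (SE) and Rpl10 near 0.

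Of the paralogs 4 of 8 were higher at late passage, with a median of 0.02. Rps4l, a copy of Rps4x on chromosome 6 that RefSeq lists as a transcribed pseudogene, had -0.17 and -0.24 on the late Smurf2-/- and wild-type mixed BL arrays and -0.16 and -0.30 on those of C57B6. On the early arrays it had 0.36 and 0.11 in mixed BL and 0.36 and 0.28 in C57B6. The 4 late arrays lay below the 4 early ones, with a difference of -0.50 ± 0.06 (SE, 1.41-fold) and the lowest adjusted p of any member for passage, 0.0815. Its 2 clusters differed: the one that lies at the gene by its neighbours gave -0.90 ± 0.07 (SE, adjusted p = 0.0670 over all clusters), and the other -0.10 ± 0.09 (SE).

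Rps27l, a paralog of Rps27 induced by DNA damage in human cells, had -0.07 and 0.15 on the late Smurf2-/- and wild-type mixed BL arrays and -0.07 and -0.61 on those of C57B6. The early arrays had 0.43 and 0.39 in mixed BL and -0.14 and 0.07 in C57B6, for a difference of -0.34 ± 0.14 (SE, adjusted p = 0.288). Rpl39l, a paralog of Rpl39 known for expression in testis, differed by -0.25 ± 0.13 (SE, adjusted p = 0.372), with the early Smurf2-/- mixed BL array at 0.69 and the other 7 arrays between -0.12 and 0.20. Rpl7l1 and Rpl10l, paralogs of Rpl7 and Rpl10, stood at 0.28 ± 0.10 and 0.26 ± 0.10 (SE, adjusted p = 0.260 and 0.258), and Rpl3l, the paralog of Rpl3 in striated muscle, stood at 0.05 ± 0.06. Rpl22 stood at 0.21 ± 0.13 (SE, adjusted p = 0.467), and its paralog Rpl22l1 was not measured alone. Rps19bp1, whose product binds Rps19 and the deacetylase Sirt1, had -0.27 late minus early in mixed BL and 0.47 in C57B6, an interaction of -0.74 ± 0.19 (SE, adjusted p = 0.393).

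The 63 genes rested on 218 clusters, up to 13 for a gene (Rpl23a and Rps12) and 1 for each of 24 genes. From the genes of neighbouring cluster identifiers, 57 clusters lay at the gene's own locus and 161 elsewhere, 155 of these on another chromosome. In the 36 genes with both kinds the passage difference had the same sign in 35, and the medians were 0.23 at the own locus and 0.23 elsewhere. The 6 genes without a cluster at the own locus were Rpl21, Rpl29, Rpl37a, Rpl41, Rpl7a and Rps3a1. Their values need not be those of the genes themselves. Clusters of one gene mostly moved as one, with a median over genes of 0.975 for the correlation between clusters across the 8 arrays, and 8 clusters shared all 8 values with another within 0.001. Clusters of one gene are therefore no independent readings of it.

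Rps2, Rps4l and Rps9 were the lowest, with correlations of 0.314, 0.434 and 0.520, and the clusters of Rps4l are given above. The own-locus cluster of Rps2, a 40S protein gene, gave a late minus early difference of 0.49 ± 0.08 (SE), and its 2 other clusters 0.05 ± 0.06 and 0.09 ± 0.06 (SE). By background the same own-locus cluster gave -0.63 ± 0.08 (SE, adjusted p = 0.0526), and the other clusters 0.03 and 0.01. In Rps9 the cluster outside the own locus gave 0.62 ± 0.08 (SE, adjusted p = 0.0659) by background and the own-locus cluster 0.05 ± 0.15 (SE).

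The signal range could be read from the step between deposited values. In 197 of the 218 member clusters (90.4%) all values were whole multiples of the step that single-precision numbers from 8 to 16 have (tolerance 0.13 of a step), against 5426 of all 24169 clusters (22.5%). Among the clusters of other genes with this step, 4287 in number, 36.7% were higher at late passage and the median difference was -0.08. Among the 14629 with a finer step, 9218 were higher, with a median of 0.04. Of the 197 member clusters with the coarse step, 93.9% were higher, with a median of 0.23. Of the 21 member clusters with a finer step, 57.1% were higher, with a median of 0.05, close to the other clusters of finer step. Among these 21 are all clusters of Rps4l, Rpl10l, Rpl32l, Rpl39l, Rpl3l and Rps23rg1. Of the paralogs, only Rpl7l1 and Rps27l have the coarse step, so the sets differ in gene class as well as in signal range. These differences between sets of clusters were not tested.

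**Figure D4:**
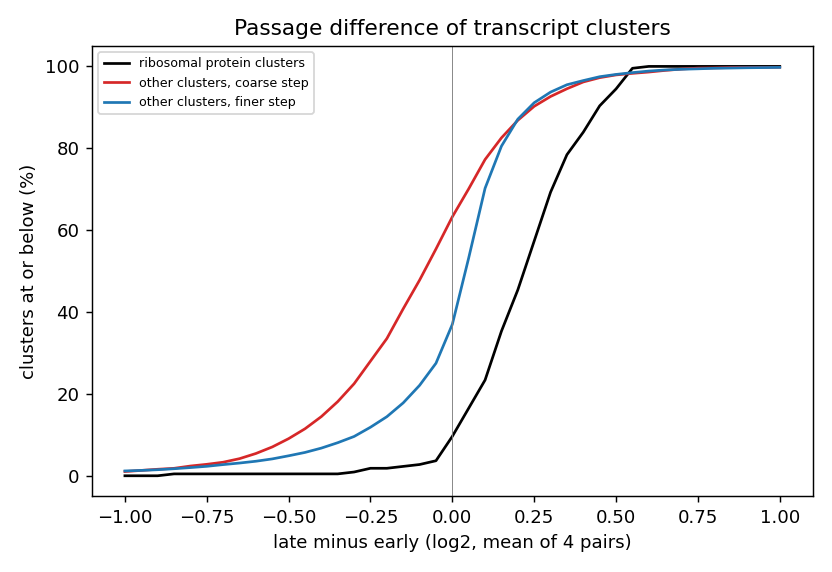
Share of transcript clusters (vertical, %) with a late minus early difference (log2, mean of 4 pairs) at or below the value on the horizontal axis, for 218 ribosomal protein clusters (black), 4287 other clusters with the coarse step of high signal (red) and 14629 with a finer step (blue). The black curve lies to the right of both others between -0.5 and 0.5.

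The genotype comparison, Smurf2-/- minus wild-type, gave small differences in these genes. Of 63 members, 48 were higher and 15 lower in Smurf2-/- cells with a median of 0.07 (0.04 to 0.09 with 1 array left out), where 55.5% of all genes were higher with a median of 0.02. By pair the member medians were 0.08 and 0.04 in late and early C57B6, and 0.02 and 0.08 in late and early mixed BL. The medians of all genes in the same pairs were 0.08, 0.00, -0.03 and 0.01, so in late C57B6 the members did not differ from all genes. No member was called and 5 of 17501 genes were (0.0286%). At an unadjusted p under 0.05, 2 members were higher (3.14% of all genes) and none lower (4.42%). In 12 members all 4 pairs were higher (11% of all genes) and in none lower (9.35%), and in none did the 4 Smurf2-/- arrays lie apart from the 4 wild-type arrays (1.14% of all genes lay above and 1.02% below).

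Rpsa had the smallest p, at 0.27 ± 0.07 (SE, adjusted p = 0.651), with pairs of 0.15 and 0.26 in late and early mixed BL and of 0.45 and 0.20 in late and early C57B6. Its Smurf2-/- arrays averaged 0.19 ± 0.25 and its wild-type arrays -0.08 ± 0.24 (SD, n = 4 each), so the groups overlapped. Rps3, a 40S protein that also acts in DNA repair, followed at 0.20 ± 0.07 (SE, adjusted p = 0.651). Rps4l, Rpl14, Rpl29 and Rpl22 were at 0.13 ± 0.06, 0.18 ± 0.10, 0.12 ± 0.07 and 0.22 ± 0.13 (SE, adjusted p from 0.651 to 0.692). The X-linked members Rps4x, Rpl36a and Rpl10 had differences of 0.06 ± 0.09, 0.04 ± 0.13 and -0.12 ± 0.10 (SE), none called, and the sign of Rpl36a turned without single arrays (-0.06 to 0.13). Since Xist differed along with genotype, these differences cannot be told apart from what goes with Xist.

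Rpl30 and Rpl12 had the widest genotype differences, in one background. Rpl30, which in the yeast Saccharomyces cerevisiae represses splicing of its own transcript, stood at -0.77 in late Smurf2-/- C57B6 cells, against 1.42 in late wild-type C57B6 cells. At early passage it had 0.56 in Smurf2-/- and 0.79 in wild-type C57B6 cells. In mixed BL it had -0.11 and 0.11 in late and early Smurf2-/- cells, against -0.42 and -0.17 in wild-type cells. The late C57B6 pair alone spanned 2.18, the whole range of the gene.

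Rpl12, at the base of the stalk, had the same order, with -0.47 in late Smurf2-/- C57B6 cells against 1.01 in late wild-type ones, and 0.48 in both at early passage. In mixed BL it had -0.03 and 0.03 in late and early Smurf2-/- cells, against -0.38 and -0.20 in wild-type cells. The interaction of genotype with background was 1.50 ± 0.64 for Rpl30 and 1.04 ± 0.49 for Rpl12 (SE, adjusted p = 0.939 each). No member and no gene (0%) passed that test. It was above 0 in 28 of 63 members (39.6% of all genes), and no member had an unadjusted p under 0.05, where 1.65% of all genes did above 0 and 1.53% below. Each gene rests on 1 cluster, at its own locus.

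Mixed BL minus C57B6 gave the only member past the threshold. Rps3a1, a 40S protein gene, had 1.24 and 0.91 on the late Smurf2-/- and wild-type mixed BL arrays and 0.80 and 0.93 on the early ones. In C57B6 it had -1.27 and -1.41 on the late and -0.92 and -0.80 on the early arrays, so that the backgrounds did not overlap. The difference was 2.07 ± 0.17 (SE, 4.20-fold, 4 of 4 pairs), with a limma adjusted p of 0.0487. Over the alternatives the difference stayed between 1.91 and 2.28 and the adjusted p lay between 0.0208 and 0.212. The gene is on chromosome 3, while its only cluster lies among identifiers of chromosome 13, so the value need not be that of the gene itself.

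**Figure D5:**
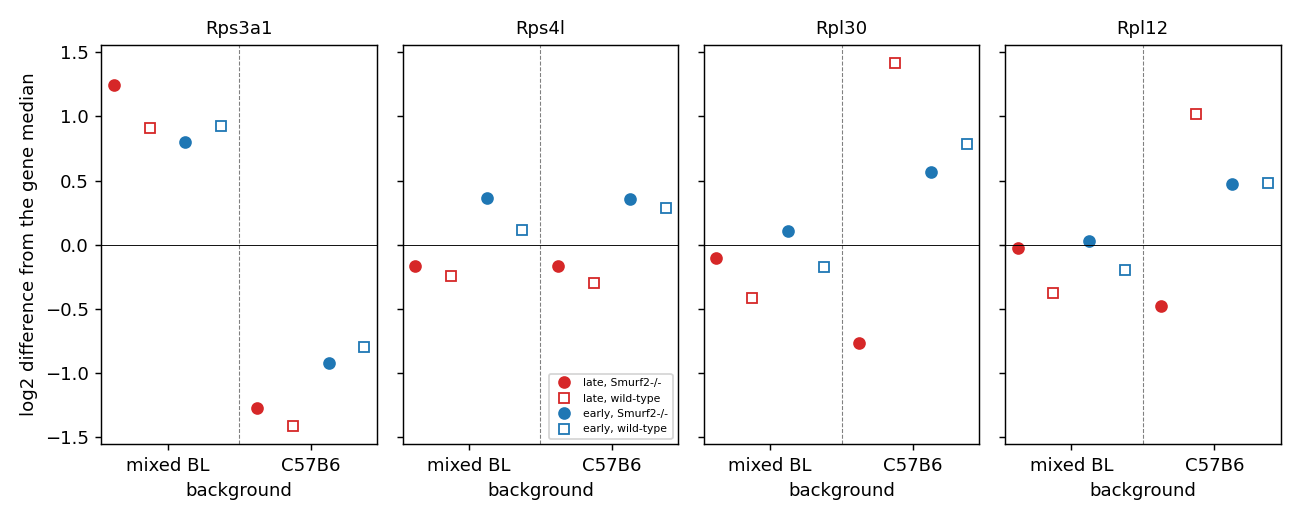
Values of Rps3a1, Rps4l, Rpl30 and Rpl12 on the 8 arrays as log2 differences from the gene's median (vertical), with mixed BL left of C57B6; filled circles are Smurf2-/-, open squares wild-type, red late and blue early. Rps3a1 separates by background, Rps4l by passage, and Rpl30 and Rpl12 spread most between the late C57B6 arrays.

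Of the 63 members, 43 were higher in mixed BL (51.7% of all genes), with a median of 0.09 (0.05 to 0.12 with 1 array left out), and 14 of 17501 genes were called (0.08%), 6 of them higher (0.0343%) like Rps3a1. At an unadjusted p under 0.05, 8 members were higher (6.85% of all genes) and 4 lower (6.62%). All 4 pairs were higher in 13 members (10.4%) and lower in 4 (9.93%). The mixed BL arrays lay above all C57B6 arrays in Rps3a1 and Rps25 (3.02% of all genes) and below them in Rpl34 (2.89%). Rpl34 had -0.12 and -0.59 on the late Smurf2-/- and wild-type mixed BL arrays and -0.31 and -0.54 on the early ones. In C57B6 it had 0.22 and 0.40 on the late and 0.23 and 0.12 on the early arrays. The difference was -0.63 ± 0.11 (SE, adjusted p = 0.131).

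Rpl29 was higher in mixed BL by 0.36 ± 0.07, Rplp1 by 0.20 ± 0.06, Rps9 by 0.34 ± 0.11, Rps7 by 0.17 ± 0.06 and Rpl14 by 0.28 ± 0.10 (SE, adjusted p from 0.163 to 0.331). The only cluster of Rpl29 lies outside its own locus, so its value need not be that of the gene itself. Rplp2, Rps2 and Rps15a differed by -0.23 ± 0.06, -0.19 ± 0.05 and -0.34 ± 0.13 (SE, adjusted p from 0.200 to 0.361). The values of Rps9 and Rps2 each rest mainly on 1 of their clusters, as given above. Over the alternatives Rps9 ranged from 0.05 to 0.40 and Rps2 from -0.63 to -0.01. At late passage the member medians by background were 0.14 in Smurf2-/- and 0.22 in wild-type cells, and at early passage 0.00 and -0.04. The medians of all genes in the same pairs were -0.07, 0.04, 0.03 and 0.03.

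Other parts of the ribosome pathway were set beside these genes. Of the 77 mitochondrial ribosomal protein genes, 63 were higher at late passage with a median of 0.14, 0.12 within mixed BL and 0.14 within C57B6, and none was called for passage. By pair the C57B6 medians were uneven, at 0.31 in Smurf2-/- (67 of 77 higher) and 0.01 in wild-type cells (42 of 77). In mixed BL they were 0.12 in both genotypes. Mrps10 and Mrpl13 had 0.43 ± 0.08 and 0.66 ± 0.14 (SE, adjusted p = 0.122 and 0.136). By background Mrpl20 was higher in mixed BL by 1.35 ± 0.09 (SE, adjusted p = 0.0287), the 1 gene of that list called. Their interaction of passage and background had a median of -0.01, where the cytosolic members had 0.16, a difference between the lists that was not tested.

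Of 45 ribosome biogenesis genes measured, which act in the making of ribosomal RNA and the assembly of subunits, 33 were higher at late passage with a median of 0.11. They had medians of 0.00 within mixed BL (0.10 in Smurf2-/- and -0.11 in wild-type cells) and 0.30 within C57B6. The interaction of passage and background was negative in 36 of 45 and above 0 in 9, where it was above 0 in 40.7% of all genes. Its median of -0.33 had the opposite sign to that of the members and the same sign as that of all genes (-0.05). The difference between the lists was not tested. Rcl1 and Heatr1 were at 0.52 ± 0.11 and 0.34 ± 0.08 (SE, adjusted p = 0.131 and 0.161). The same 45 genes had medians of 0.21 by genotype, with 39 higher in Smurf2-/- cells, and of 0.30 by background, with 41 higher in mixed BL, and none was called in these comparisons. Of 15 RNA polymerase I genes, 9 were higher at late passage (median 0.15, 0 called), with Ubtf at 0.34 ± 0.11 (SE, adjusted p = 0.215).

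Of 18 other genes with TOP messenger RNAs, mostly translation factors, 13 were higher at late passage, with a median of 0.15 and none called. Eif4b was at 0.34 ± 0.08 and Fau, whose product is cut into a ubiquitin-like protein and Rps30, at 0.27 ± 0.07 (SE, adjusted p = 0.159 and 0.175). By genotype 7 of these 18 were higher. Of the 3 measured hosts of small nucleolar RNAs with TOP starts, 1 was higher at late passage, and Gas5 stood at -0.53 ± 0.36 (SE). Of 21 regulators in mTORC1 and Myc signalling, 9 were higher (median -0.05, 0 called). The partner of Myc, Max, was at -0.57 ± 0.13 and Larp1 differed by genotype by 0.31 ± 0.11 (SE, adjusted p = 0.149 and 0.651).

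The members were also set out by their annotated starts. Of the 10 members with a pyrimidine run at the start, such as Rps10 above, 9 were higher at late passage with a median of 0.23. Of the 41 without a run at the annotated start 34 were higher with a median of 0.16, and of the 12 with no promoter entry 10 with a median of 0.25. The difference between these sets was not tested.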

How the data were processed

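RNA of mouse embryonic fibroblasts was hybridised to Affymetrix arrays. The authors deposited log2 values from which each cluster's median over all arrays had been subtracted, since no row median exceeded 5e-07 in size; the array normalisation is not given in the sources used here, and the number of arrays limits the precision. The submitters' processing notes name the builds mm8 and mm9 without a role. Of 24169 clusters, 19134 had 1 symbol in the platform annotation, of a gene-level array although the series text names an exon array, 1230 several and 3805 none. Gene identifiers of 19067 clusters matched RefSeq GRCm38.p6, and no symbol differed.

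A gene's value is the mean of its clusters, over 17501 genes. limma 3.58.1 (R 4.3.3; lmFit, eBayes without trend) fitted genotype, background and passage class on all 8 arrays (4 residual degrees of freedom), with 1 interaction added where tested (3). Adjustment over genes followed Benjamini and Hochberg. The fit was run on simulated data with independent noise and changes by passage only. Such data hold no unfitted interactions or differences between arrays, so they cannot show how well the p-values hold here. The number ending each title is the passage class, so the labels pair arrays by it, and the model holds that pairing; same-class arrays are not known to share a culture. A cluster was placed at a gene's locus from the 5 named identifiers on either side. Promoters come from RefSeq GRCm38.p6, with no coordinates of the arrays' builds used.

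The members, lists and tests were chosen with earlier results of these data known. For each of the 3 main comparisons up to 8 members per direction of the smallest p with 1 sign in 4 pairs were named, up to 4 per direction for an interaction, the paralogs and their partners, the P stalk, Rpsa, Rpl5, X-linked members and Rps19bp1 always, and up to 4 genes per other list; other genes, such as Rps28 and the clusters of Rps2 and Rps9, were chosen after their values were seen. Alternatives were another gene value, scaling, unit of fit, robust eBayes, other member sets, no replicate block, all interactions, each array left out and, added after seeing the data, own-locus clusters only.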

Additional observations from a re-analysis of the deposited data

Results flagged for a closer look

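In 9 of 58 patterns looked at, the arrays of one group all moved one way and those of the other all moved the opposite way. Each such set holds 2 pairs, so opposite signs also arise by chance, at a rate not worked out here. The genes looked at were those named for a small interaction p, which favours such patterns. The differences were not tested beyond the interaction fits, in which none was called. The genotype difference of Rpl30 was -1.20 in C57B6 and 0.29 in mixed BL, 1.50 apart, and that of Rpl12 was -0.75 and 0.29, 1.04 apart. The early C57B6 pair of Rpl12 differed by only -0.01. The genotype difference of Rpl32l was 0.25 in C57B6 and -0.04 in mixed BL, a difference of -0.29. The passage difference of Rps19bp1 was 0.47 in C57B6 and -0.27 in mixed BL, a difference of -0.74, and that of Rpl14 was 0.24 and -0.20, a difference of -0.43. For Rpl27a the passage difference was -0.07 in C57B6 and 0.39 in mixed BL, 0.46 apart. The genotype difference of Rps3a1 was 0.24 at late and -0.12 at early passage, 0.36 apart. That of Rpl10l was 0.05 at late and -0.20 at early passage, 0.25 apart. The passage difference of Rpl10 was -0.12 in Smurf2-/- and 0.11 in wild-type cells, a difference of -0.23. In 64 groups of 4 arrays no array stood apart by Dixon's criterion, which chance meets in about 1 of 20 groups.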

How the results depend on the processing

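Most values kept their direction and side of the threshold. The Smurf2 difference kept its sign but lost its call at -1.46 with quantile normalisation (adjusted p = 0.226), -1.58 with array medians subtracted (0.0731) and at -1.57 with robust eBayes (0.0569), all interactions (0.158) or no replicate block (0.498), and it ranged from -1.69 to -1.49 with 1 array left out. Without the replicate block, which can be dropped only for genotype and background, the estimates cannot move in this balanced design (member medians 0.068 and 0.092). Members called stayed at 0 and 1, and genes called were 4 and 14. The 1 call by background, Rps3a1, became 0 with quantile normalisation, subtracted medians, robust eBayes, all interactions and each array left out (0 to 0). With own-locus clusters it is also 0, because Rps3a1 has none and was not tested. Counted as clusters, the members' median was 0.27 for passage by background and 0.35 within mixed BL, and over members with 1 cluster 0.083 and 0.17. With 1 array left out, the median within mixed BL was 0.25 to 0.31, within C57B6 0.046 to 0.12, by passage 0.16 to 0.24, by genotype 0.040 to 0.092 and by background 0.046 to 0.12, those of genotype by passage -0.058 to 0.094 and of genotype by background -0.13 to 0.094, and the shares higher 30.2% to 65.1% and 31.7% to 69.8%. Signs turned for Rpl10 by passage (own-locus cluster 0.0014; -0.088 to 0.087 with arrays left out) and, with arrays left out, for Rps19bp1 by passage (-0.056 to 0.26) and by genotype for Rpl36a (-0.065 to 0.13), Rpl7 (-0.088 to 0.081), Rps27l (-0.10 to 0.11) and Rpl10l (-0.13 to 0.023). These causes were not tested. Over all genes, calls for genotype, passage and background were 5, 3 and 14 as reported, 0, 2 and 1 with quantile normalisation, 0, 0 and 7 with medians subtracted, 3, 0 and 66 with clusters as the unit, 1, 0 and 5 with robust eBayes and 0, 0 and 1 with all interactions. With 1 array left out they were 0 to 1, 0 to 2 and 1 to 21, and the 85 for passage within mixed BL became 0 each time. The unknown signal over background limits what the values show.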

Other observations

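Another 239 clusters carried several symbols with at least 1 ribosomal protein symbol among them, and were in no comparison above. Of these, 232 (97.1%) were higher at late than at early passage, with a median log2 difference of 0.21, of 0.30 in mixed BL and 0.06 in C57B6. Their median by genotype was 0.04. Rpl17, Rpl35a, Rpl31 and Rpl15 occurred in 17, 12, 9 and 8 of these clusters. The same transcripts may be read by clusters of both kinds, so the values are no independent support for those of the 63 genes.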
